A study of Mus musculus with 5 samples.

Results

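The suppressors of cytokine signalling (SOCS) are a family of 8 genes in the mouse, Cish and Socs1 to Socs7, and all 8 were represented on the arrays, by 24 of 45101 probe sets; 18193 genes were named in all. Members were taken by gene symbol from the platform's probe annotation, with every probe set of each gene. The family was chosen by its values in the comparison of KA/KA with WT arrays, in which Socs3 had stood out, so the genotype differences of its members are given here as descriptions and without a test. By the labels, RNA of every array came from bone marrow cells enriched on magnetic beads for B220, a form of CD45 on developing B cells; 3 of the 5 arrays went against that label, as described with the array sets. The donors are given as FVB mice aged 4 weeks, either homozygous for a knock-in that makes the kinase IKKα catalytically dead (KA/KA, 3 arrays) or wild-type littermates (WT, 2 arrays). No mouse had been treated, the knock-in is carried by every cell of the animal, and whether animals were pooled for an array is not stated in the labels.

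SOCS proteins close a feedback loop on cytokine receptors. A cytokine brings receptor-bound JAK kinases together, these phosphorylate STAT transcription factors, and STATs switch on SOCS genes. The SOCS protein then docks on the receptor or the kinase through its SH2 domain, and through its C-terminal SOCS box it recruits elongins B and C, cullin 5 and a RING protein, which mark the target for degradation. In bone marrow this loop sets how strongly blood cells answer interleukin 7, interferons, granulocyte colony-stimulating factor and the interleukin 6 group of cytokines.

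STATs bind a palindrome that can be written TTCNNNGAA, which reads alike on both strands. The RefSeq promoter table (GRCm38.p6, 250 bases before to 50 after each start) held 4 of the 8 members, Cish, Socs1, Socs3 and Socs4. Stretches of 30 bases are shown for Cish and Socs3, the members in whose windows these letters occurred, with each match in capitals. The Socs3 stretch lies on the minus strand at chr11:117969501-117969530, and its match begins 154 bases before the start in that table. The Cish stretch lies on the plus strand at chr9:107296654-107296683, and its matches begin at bases 1 and 12 of the transcript.
Socs3: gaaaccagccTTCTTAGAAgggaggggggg
Cish: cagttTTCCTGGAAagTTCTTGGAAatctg
Of 32851 promoter windows of 300 bases, 8.30% held at least 1 such match and 0.457% held at least 2, as that of Cish did. The longer spaced form TTCNNNNGAA, searched in the same way, occurred in 6.95% of windows and in none of the 4 members. A match is a string of letters and not a measured binding site.

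Each array gave an intensity per probe set, scaled to a trimmed mean of 500, and values below are log2(signal + 16), on which a signal of 0 reads 4. This scale understates changes of dim genes, and precision is limited by there being 5 arrays. The arrays fell into 2 sets by their poly-A control signal, RNA added before labelling. The arrays labelled KA/KA 1 and WT 1 had median control signals of 11897 and 7305 and are called the high-spike pair. On the low-spike arrays, KA/KA 2, KA/KA 3 and WT 2 by their labels, it was 136, 249 and 46.9. All 11 B-cell development genes measured were lower on every low-spike array than on either array of the pair. Rag1, the V(D)J recombinase of B-cell precursors, read 12.80 and 12.79 in the pair and 4.09 to 4.10 on the low-spike arrays, near a signal of 0. Others kept signal there. Cd22 read 10.84 on KA/KA 2, 10.95 on KA/KA 3 and 9.61 on WT 2 (12.26 and 12.16 in the pair), and Blnk 11.58, 10.40 and 8.95 (13.24 and 12.92). Sftpc, surfactant protein C of the lung, read 14.04 to 15.00 on the low-spike arrays against 5.97 and 6.53 in the pair. Whether the low-spike arrays hold the labelled cells is thus in doubt, and their values are those of the arrays so labelled. Genotypes are therefore compared inside each set, as 1 array against 1 and 2 arrays against 1. The single pair of arrays that shared both genotype and set, KA/KA 2 and KA/KA 3, gives the only spread available, a median of 0.38 log2 units over all probe sets. That spread takes in differences of sex-linked transcripts and cell markers between these 2 arrays, given below. The high-spike pair held no such replicate. Sex-linked transcripts were looked at after the other values were seen, and they differed too. Xist, the transcript of the inactive X chromosome, read 12.48 on KA/KA 1 and 13.93 on KA/KA 2, against 6.49 to 7.67 on the other 3 arrays. The Y-linked Eif2s3y read 4.78 on KA/KA 2 and 10.41 to 11.37 elsewhere, so that KA/KA 1 was high for both. Inside the pair and on KA/KA 2, genotype and these transcripts cannot be told apart, while KA/KA 3 and WT 2 were alike in them.

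Socs3, the inhibitor of gp130 and granulocyte colony-stimulating factor receptors, was higher on the KA/KA arrays in both sets. Its brightest probe set, 1455899_x_at, read 9.05 on KA/KA 1 and 7.94 on WT 1, and 11.27 and 11.22 on KA/KA 2 and KA/KA 3 against 8.83 on WT 2. All 3 KA/KA arrays lay above both WT arrays, and the sets overlapped, because WT 2 lay below KA/KA 1. In units of signal these readings were 513 against 230 in the pair and 2455 and 2377 against 438 on the low-spike arrays. The difference was 1.11 in the pair (2.15-fold) and 2.44 and 2.40 on the low-spike arrays (5.44- and 5.27-fold). KA/KA 2 and KA/KA 3, which were opposite in Xist, were 0.05 apart. In ascending order the arrays ran WT 1, WT 2, KA/KA 1, KA/KA 3 and KA/KA 2, and only the last 2 can be set against a replicate.

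The other Socs3 probe sets pointed the same way with other sizes. Probe set 1456212_x_at read 8.77 and 8.10 in the pair, and 10.69, 10.90 and 9.25 on KA/KA 2, KA/KA 3 and WT 2. Probe set 1416576_at read 7.57 and 6.30 in the pair, and 9.16, 9.05 and 8.36 on the low-spike arrays in the same order. In both, KA/KA was above WT inside each set, but KA/KA 1 lay below WT 2, so the genotypes overlapped over the 5 arrays. The suffix _x_at marks probe sets whose probes can match other transcripts, and 1416576_at is the Socs3 probe set without it. By that probe set the difference was 1.27 in the pair but 0.80 and 0.69 on the low-spike arrays, so the larger low-spike difference rests on the 2 probe sets with that suffix. Over the 5 arrays the means of KA/KA and WT differed by 2.13 ± 0.83 (limma, ± SE, n = 3 and 2) for the brightest probe set, and by 1.45 ± 0.79 and 1.26 ± 0.83 for the others in a fit of every probe set.

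Socs1, the inhibitor of interferon γ and interleukin 7 signalling that binds JAK kinases directly, was dim in its mean over the arrays. In the pair it lay above the array medians (6.80 on KA/KA 1 and 6.81 on WT 1). On the low-spike arrays it lay below them (7.13 to 7.17). Its single probe set read 7.14 and 6.86 on KA/KA 1 and WT 1, and 6.76, 6.68 and 5.12 on KA/KA 2, KA/KA 3 and WT 2. One array, WT 2, was set apart from the rest: it read 18.7 units of signal against 86.5 to 125 on the other 4, below the 25th percentile of that array (5.67). The KA/KA arrays were higher by 1.64 and 1.56 on the low-spike arrays and by 0.28 in the pair. KA/KA 2 lay below WT 1, so the genotypes overlapped over all arrays. The difference of means was 0.87 ± 0.66 over the 5 arrays and -0.004 without WT 2. With a mean of 6.51 the gene was under the filter on dim probe sets (7.04), and its values come from the fit without that filter.

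Cish, a standard target of STAT5 that restrains interleukin 2 and growth hormone signalling, followed the array sets more than the genotype. It read 8.47 on KA/KA 1 and 7.99 on WT 1, and 10.67, 10.27 and 10.07 on KA/KA 2, KA/KA 3 and WT 2. All low-spike arrays lay above both arrays of the pair, by 2.11 in the mean (4.32-fold). KA/KA exceeded WT by 0.48 in the pair and by 0.60 and 0.20 on the low-spike arrays, where KA/KA 2 and KA/KA 3 were themselves 0.40 apart.

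Socs2, the brake on growth hormone signalling, showed the same split on all 6 of its probe sets. The brightest, 1449109_at, read 10.25 and 9.23 on KA/KA 1 and WT 1, and 12.10, 12.14 and 11.81 on KA/KA 2, KA/KA 3 and WT 2, which is 4.86-fold higher on the low-spike arrays. KA/KA 1 was above WT 1 on each of the 6 probe sets, by 0.28 to 1.02. On the low-spike arrays the mean of KA/KA ran from 0.31 above WT 2 to 0.41 below it, with 3 probe sets on either side. Over the 5 arrays the means of Cish differed by 0.78 ± 0.96 and those of Socs2 by 0.98 ± 1.01. Without WT 1 the KA/KA mean lay below that of WT for both genes (-0.27 and -0.31). That mean still held KA/KA 1, from the set in which both genes were lower, while WT was then WT 2 alone. Array set and genotype were thus mixed in these values, and no direction is read from them.

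**Figure D1:**
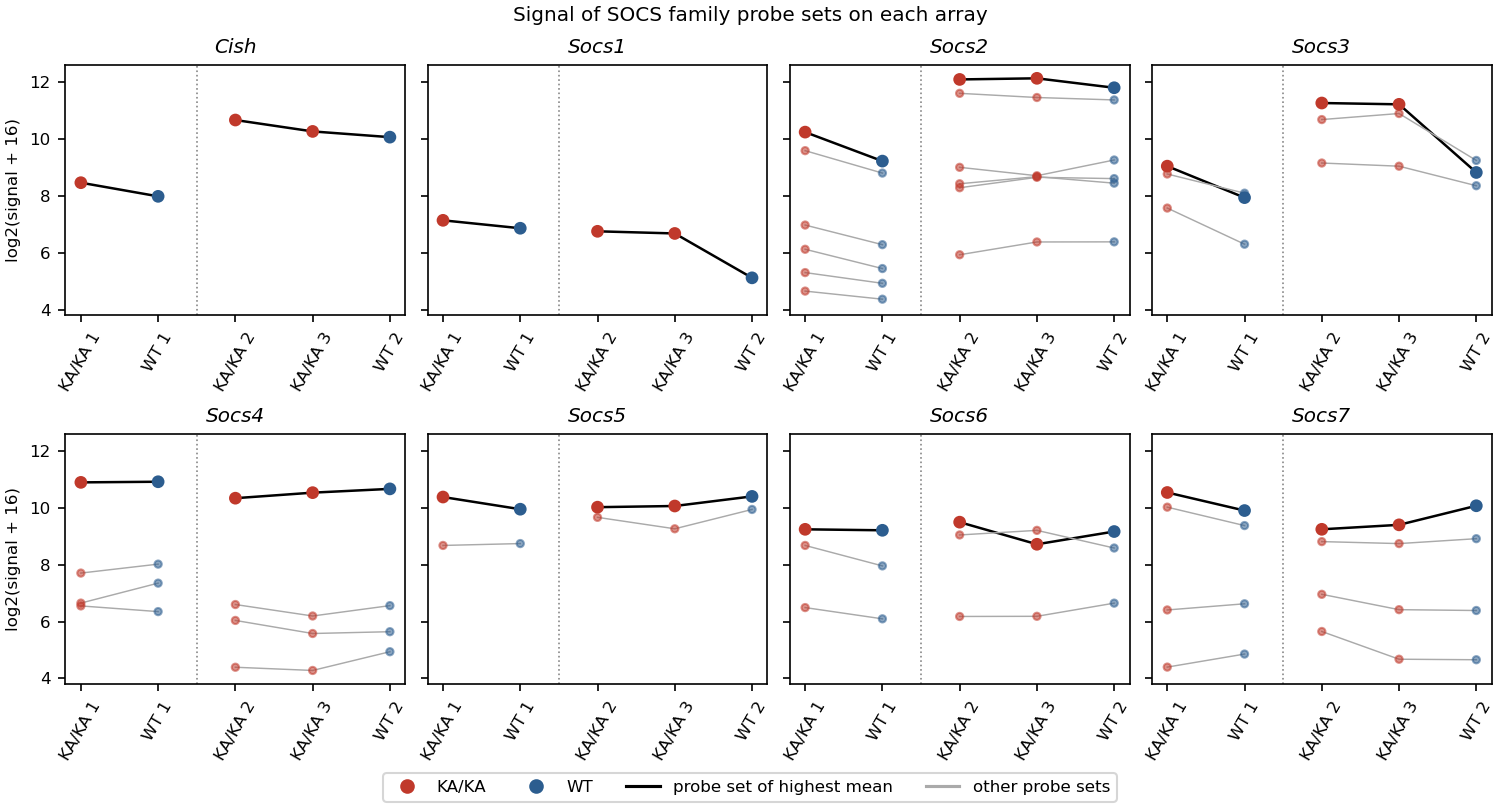
Signal of all 24 SOCS family probe sets, as log2(signal + 16), on each of the 5 arrays, with KA/KA in red, WT in blue, the probe set of highest mean of each gene in black lines and the others in grey; each point is 1 array and the dotted line divides the high-spike pair from the low-spike arrays. Socs3 is higher on KA/KA arrays in both sets, Socs1 is low on WT 2 alone, and Cish and Socs2 are higher on all low-spike arrays.

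Socs4 to Socs7 are the members with a long N-terminal region. Socs4, a relative of Socs5 that acts on the epidermal growth factor receptor, read 10.90 and 10.92 on KA/KA 1 and WT 1, and 10.34, 10.54 and 10.67 on KA/KA 2, KA/KA 3 and WT 2 (probe set 1455142_at). The genotypes were 0.02 apart in the pair, and KA/KA was 0.33 and 0.13 lower on the low-spike arrays, with 0.19 between KA/KA 2 and KA/KA 3. All 4 Socs4 probe sets were lower on every low-spike array than on either array of the pair, by 0.39 to 1.91 in the mean.

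Socs5, which also dampens interleukin 4 and growth factor receptors, read 10.38 and 9.96 in the pair and 10.03, 10.07 and 10.41 on KA/KA 2, KA/KA 3 and WT 2 (probe set 1423350_at). KA/KA was thus 0.43 higher in the pair and 0.38 and 0.34 lower on the low-spike arrays, while KA/KA 2 and KA/KA 3 were 0.04 apart. Its second probe set, 1423349_at, was lower on KA/KA in both sets (-0.07 in the pair, -0.28 and -0.68 on the low-spike arrays).

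Socs6, which binds receptor tyrosine kinases such as KIT, gave conflicting probe sets. Probe set 1450129_a_at read 9.25 and 9.21 in the pair and 9.50, 8.72 and 9.17 on KA/KA 2, KA/KA 3 and WT 2, so that KA/KA 2 and KA/KA 3 lay on opposite sides of WT 2 and 0.78 apart. Probe set 1435492_at read 8.68 and 7.96 in the pair and 9.05, 9.21 and 8.59 on the low-spike arrays, with all KA/KA arrays above both WT arrays. The third, dim probe set was 0.40 higher on KA/KA in the pair and 0.47 and 0.46 lower on the low-spike arrays. Averaging the kept probe sets turned the difference of means from -0.04 ± 0.39 to 0.33.

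Socs7, which binds insulin receptor substrate proteins and adaptors, read 10.54 and 9.91 on KA/KA 1 and WT 1, and 9.25, 9.41 and 10.08 on KA/KA 2, KA/KA 3 and WT 2 (probe set 1455402_at). KA/KA was 0.64 higher in the pair and 0.83 and 0.67 lower on the low-spike arrays, with 0.16 between KA/KA 2 and KA/KA 3. Probe set 1434834_at was likewise 0.65 higher in the pair but only 0.10 and 0.17 lower on the low-spike arrays. The other 2 probe sets were dim, lower on KA/KA 1 than on WT 1 by 0.22 and 0.46, and higher than WT 2 on KA/KA 2 (0.57 and 0.99) but not clearly on KA/KA 3 (0.03 and 0.02).

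Counted over all 24 probe sets, members at least 2-fold higher on KA/KA were few and belonged to Socs1, Socs2 and Socs3. In the high-spike pair 3 of 24 were at least 2-fold higher on KA/KA 1 than on WT 1 (2 of Socs3 and 1 of Socs2), as were 5.62% of all 45037 probe sets. None was 2-fold lower, against 4.08% of all. On the low-spike arrays 3 of 24 were at least 2-fold higher on both KA/KA arrays than on WT 2 (the 2 _x_at probe sets of Socs3 and that of Socs1), against 2.96% of all, and none was 2-fold lower on both, against 2.56%. Complete separation of the genotypes upward occurred for 2 of 24 probe sets, 1 of Socs3 and 1 of Socs6, and for 5.33% of all; downward it occurred for none, and for 4.95% of all. Since the family was chosen on this contrast, nothing is read from these counts.

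Differences in the pair ran upward for 18 of 24 member probe sets, with a median of 0.41, against 51.8% of all probe sets and a median of 0.02. On the low-spike arrays 13 were higher on KA/KA 2 and 12 on KA/KA 3, with medians of 0.14 and 0.01, against 47.7% and 48.7% of all. Between the array sets, 10 of 24 probe sets were higher on every low-spike array than on either array of the pair (28.6% of all) and 6 were lower on every one (24.2% of all). The 10 were the single probe set of Cish, all 6 of Socs2, 2 of Socs3 and 1 of Socs5, and the 6 were all 4 of Socs4, 1 of Socs7 and that of Socs1. In these bulk samples, fewer cells of a type and less RNA per cell cannot be told apart.

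**Figure D2:**
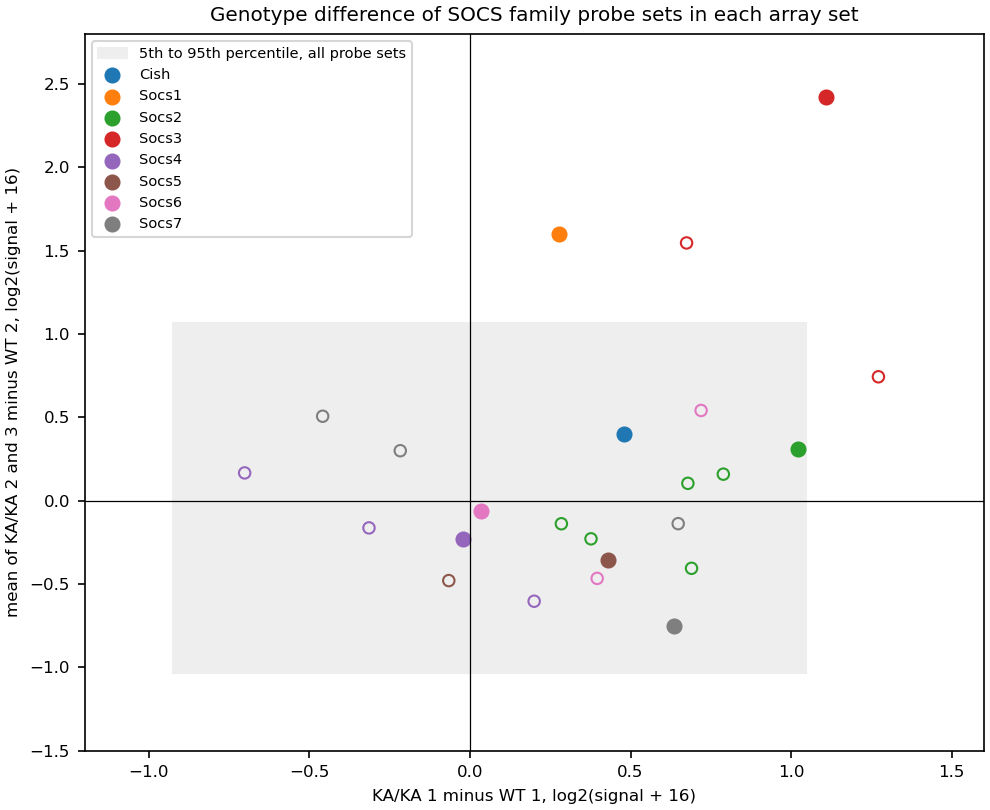
Difference of KA/KA and WT on the log2(signal + 16) scale for each of the 24 probe sets, in the high-spike pair (horizontal) and on the low-spike arrays (vertical, mean of 2 KA/KA arrays minus 1 WT array); filled points are the probe set of highest mean of each gene, open points the others, and the grey box spans all 45037 probe sets but 5% at either end, -0.93 to 1.05 across and -1.04 to 1.07 upward. The 3 Socs3 points lie above 0 on both axes, and the filled points of Socs5 and Socs7 lie above 0 across and below 0 upward.

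In limma's fit over the 5 arrays, which held 7 of the 8 members, 0% of 11392 genes passed the threshold (25 had an unadjusted p below 0.05). This is the background of the fit and no test of the members, which were chosen on the same contrast. By gene, the KA/KA arrays lay wholly above both WT arrays for 1 of 7 members, Socs3, against 4.12% of the genes tested, and wholly below for none, against 2.66%. With the array set as a block, 0% of genes passed, with 311 genes at an unadjusted p below 0.05. The block moved Socs3 to 1.86 ± 0.36, Socs1 to 1.03 ± 0.46, Socs2 to 0.62 ± 0.27 and Cish to 0.44 ± 0.27, and Socs4 to Socs7 lay between -0.16 and -0.02. The smallest adjusted p over all genes was 0.9999 without and 0.9989 with the block.

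The rest of the cytokine pathway was followed through 97 listed genes, of which 90 were named on the arrays and 75 passed the filter. None passed the test in either direction. The KA/KA mean was higher for 59 of 75 (78.7%), against 55.4% of all genes tested. In the high-spike pair alone 48 were higher (64%, against 56.8% of all), and on the low-spike arrays alone 54 (72%, against 46.9%). All KA/KA arrays lay above both WT arrays for 11 of 75 (14.7%), against 4.12% of all genes tested. They lay below both for 1, the interferon γ receptor gene Ifngr1, against 2.66% of all genes tested.

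Cytokine transcripts themselves were mostly dim, with 5 of 20 past the filter. Osm, a gp130 cytokine of myeloid cells, read 8.21 and 8.05 on KA/KA 1 and WT 1 and 8.41, 8.16 and 7.58 on KA/KA 2, KA/KA 3 and WT 2, with a difference of means of 0.44 ± 0.40. Over the 5 arrays Csf2 differed by 0.64 ± 1.09 and Ctf1 by 1.05 ± 1.33. Both genes were higher on every low-spike array than on either array of the pair. Inside the sets, the Csf2 difference was -0.42 in the pair, and 0.18 and 1.56 on KA/KA 2 and KA/KA 3 against WT 2. For Ctf1 it was 1.61 in the pair, and -0.002 and -0.32 on the low-spike arrays. Il6, named here after its values were seen, read 8.35 and 6.67 on KA/KA 2 and KA/KA 3 against 4.79 on WT 2. In the pair it read 4.22 and 4.91 on KA/KA 1 and WT 1. It was thus measured clearly above the low end of the scale on 2 arrays, both KA/KA, and was under the filter. Il6 was not alone in this among the dim cytokines. On KA/KA 2, KA/KA 3 and WT 2, Il21 read 6.62, 7.24 and 4.38, and Il10 read 7.12, 8.47 and 6.02. Csf3 and Lep went the other way, lower on both KA/KA arrays than on WT 2. Of the 20 cytokine genes, 8 were higher on KA/KA 1 than on WT 1. Against WT 2, 12 were higher on KA/KA 2 and 14 on KA/KA 3. Over all probe sets the shares were 51.8%, 47.7% and 48.7%.

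Of 23 receptor genes, 15 were higher on KA/KA 1 than on WT 1 (median 0.16, against 0.08 over all genes tested). Against WT 2, 18 were higher on KA/KA 2 (median 0.93, against -0.04) and 17 on KA/KA 3 (0.43, against -0.01), and over the 5 arrays 20 were higher in the mean. Csf2rb, the shared β chain of the interleukin 3, interleukin 5 and GM-CSF receptors, read 10.74 and 10.24 in the pair and 12.96, 12.33 and 10.70 on KA/KA 2, KA/KA 3 and WT 2 (difference of means 1.54 ± 0.72). Il7r, the interleukin 7 receptor chain, read 12.62 and 12.47 in the pair and 12.63, 12.09 and 9.70 on the low-spike arrays (1.36 ± 0.86), so that WT 2 alone was low, as for Socs1. Osmr, the oncostatin M receptor, separated the sets, with 7.24 and 6.73 in the pair and 11.26 to 12.28 on the low-spike arrays.

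Among 4 JAK kinases 3 were higher in the pair (median 0.20), and 3 and 4 on KA/KA 2 and KA/KA 3 (0.39 and 0.30). Jak3, which serves the common γ chain receptors, read 8.94 and 7.88 in the pair and 8.46, 8.33 and 7.74 on KA/KA 2, KA/KA 3 and WT 2 (0.77 ± 0.41), and Jak1 and Jak2 differed by 0.22 ± 0.25 and 0.42 ± 0.35. Of 6 STAT genes 5 were higher in the pair (median 0.45), and 4 on each low-spike KA/KA array (0.23 and 0.02). Stat3, which carries the gp130 signal to Socs3, read 11.05 and 10.17 in the pair and 12.13, 11.62 and 11.59 on the low-spike arrays (0.72 ± 0.57), with KA/KA 3 and WT 2 0.04 apart. Stat4 and Stat6 differed by 0.56 ± 0.74 and 0.36 ± 0.27.

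Of 22 genes that STATs induce in other settings, 12 were higher in the pair (median 0.17), a share near the 56.8% of all genes. Against WT 2, 17 were higher on KA/KA 2 (median 0.51) and 20 on KA/KA 3 (0.65), and over the 5 arrays 20 were higher in the mean. Bcl3, an atypical IκB protein and STAT3 target, read 9.27 and 8.43 in the pair and 9.75, 10.05 and 7.62 on the low-spike arrays, with every KA/KA array above both WT arrays (1.67 ± 0.46). Arg1, the arginase of alternatively activated macrophages, read 14.23 on KA/KA 2 alone, against 8.08 and 6.98 on KA/KA 3 and WT 2 and 4.22 and 4.36 in the pair. Timp1, an inhibitor of metalloproteinases, was likewise highest on KA/KA 2, at 12.29, against 8.61 and 8.58.

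The list of SOCS box ligase genes held Cul5, Rnf7, Elob and Eloc, which a SOCS box recruits, and Asb2, itself a SOCS box protein. Of these 5, 2 were higher in the pair (median -0.49) and 2 on each low-spike KA/KA array (-0.25 and -0.03). Elob, elongin B, was 0.49 lower in the pair and 0.46 and 0.20 higher on KA/KA 2 and KA/KA 3. Rnf7, the RING subunit, read 11.68 and 12.43 in the pair and 11.35, 11.56 and 11.59 on KA/KA 2, KA/KA 3 and WT 2 (-0.48 ± 0.36), and over the 5 arrays Eloc, elongin C, differed by -0.26 ± 0.31 and Asb2 by -0.15 ± 0.43. Of 10 other inhibitors of the pathway, 8 were higher in the pair (median 0.47) and 5 and 6 on KA/KA 2 and KA/KA 3 (-0.12 and 0.06), with differences over the 5 arrays, for the tyrosine phosphatases, of 0.58 ± 0.35 for Ptpn1 and 0.41 ± 0.52 for Ptpn11, and of 0.39 ± 0.37 for the ubiquitin ligase Cbl.

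Markers of other cells moved on the same arrays as Socs3 and Socs1. Over all probe sets, 47.7% were higher on KA/KA 2 than on WT 2, and 48.7% on KA/KA 3. Against WT 2, genes of monocytes and macrophages were higher for 12 of 13 on KA/KA 2 and for 13 of 13 on KA/KA 3, and their summed signal was 117579 and 97823 against 49487. T cell genes were higher for 9 and 10 of 10 (summed signal 5222 and 10919 against 2635), and neutrophil genes for 7 and 10 of 11 (33616 and 73312 against 6641). Heart muscle genes were higher for none of 7 on either array (1306 and 10270.1 against 54994), endothelial genes for 0 and 3 of 11, and keratinocyte genes for 7 of 7 on KA/KA 2 (44639 against 424) and 4 of 7 on KA/KA 3 (479). Lung epithelial genes were higher for 9 and 10 of 14 (221468 and 229473 against 153557), and B-cell development genes for 5 and 7 of 11 at low sums (6064 and 6667 against 2974). Immediate early genes, which respond to handling, were higher for 7 and 11 of 13 (27845 and 34649 against 26952). No listed marker had a signal of 0 on any array. What share these cells had in the low-spike differences of Socs3 and Socs1 was not tested.

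Inside the high-spike pair, where Socs3 was 2.15-fold higher on KA/KA 1, the same lists ran otherwise. Over all probe sets, 51.8% were higher on KA/KA 1 than on WT 1. Neutrophil genes were higher for none of 11 (summed signal 122035 against 185061), T cell genes for 2 of 10 (3814 against 6205), and those of monocytes and macrophages for 9 of 13, with a lower sum (65627 against 80365). B-cell development genes were higher for 6 of 11 (62505 against 70966), endothelial genes for 10 of 11 at a low sum (4258 against 2756), lung epithelial genes for 10 of 14 (3996 against 4002), keratinocyte genes for 5 of 7 (323 against 257), heart muscle genes for 2 of 7 (5443 against 6884), and immediate early genes for 8 of 13 (9607 against 7717). In the pair the heart muscle sum came mostly from Myl4 (12.36 on KA/KA 1 and 12.71 on WT 1). The lung epithelial sum came mostly from Napsa (11.73 and 11.80), while Sftpc read 6.53 and 5.97. What part the cells of these lists had in the Socs3 difference inside the pair was not tested.

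**Figure D3:**
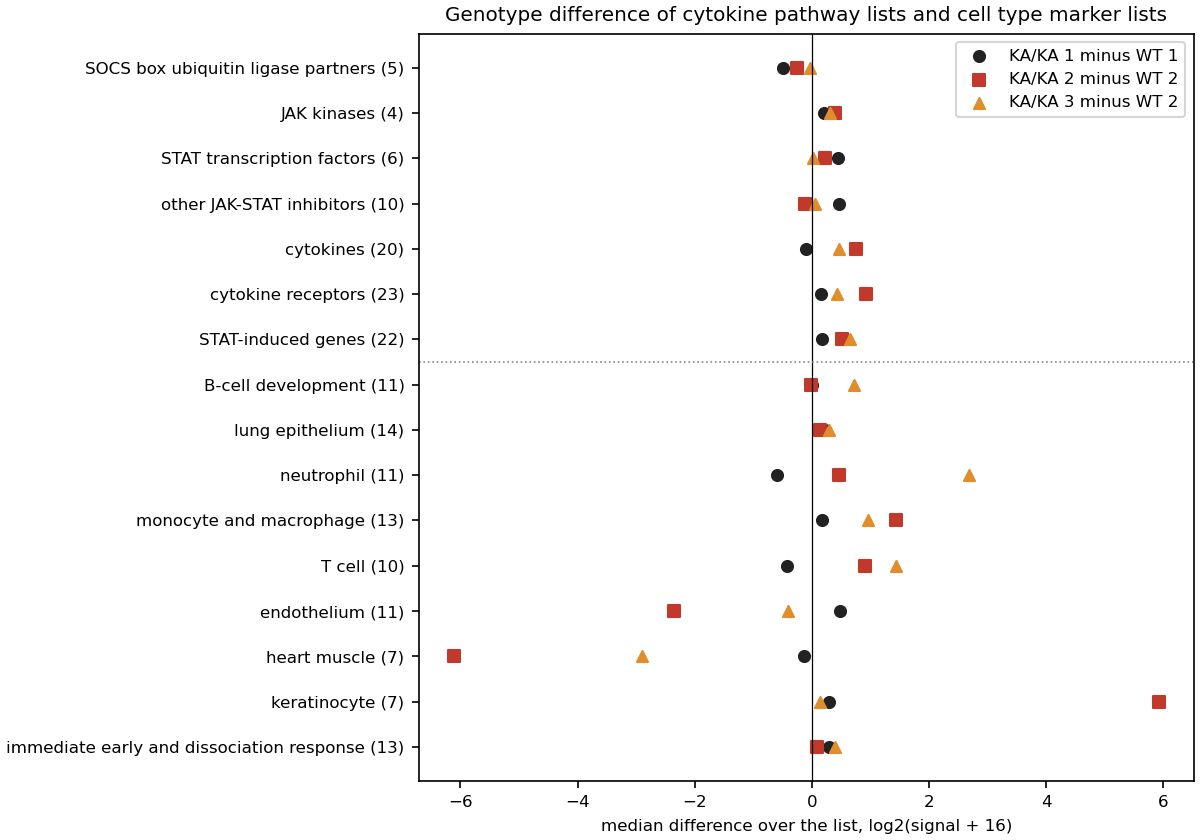
Median difference of KA/KA and WT on the log2(signal + 16) scale over each list of cytokine pathway genes (above the dotted line) and cell type markers (below it), for KA/KA 1 minus WT 1 and for KA/KA 2 and KA/KA 3 minus WT 2; the number of named genes is in brackets. Receptors, JAK kinases, STAT genes and STAT-induced genes lie above 0 in all 3 differences. So do monocyte, lung epithelial, keratinocyte and immediate early markers. T cell and neutrophil markers are higher on both low-spike KA/KA arrays and lower in the pair.

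Patterns most like those of the members were sought among the genes past the filter, as the root mean square difference of log2 values over the 5 arrays after each gene was centred on its own mean. For Socs3 these were Cd6, a T cell surface receptor, at 0.31, Cd14, the endotoxin co-receptor of monocytes, at 0.35, and Fscn1, an actin-bundling protein of mature dendritic cells, also at 0.35. The Socs3 pattern was that of its brightest probe set alone, 1455899_x_at. Its mean low-spike difference was 2.42, against 0.74 for 1416576_at, so the matches depend on that probe set. Cd14 read 9.21 and 8.93 in the pair and 12.16, 12.39 and 9.83 on KA/KA 2, KA/KA 3 and WT 2. The nearest to Socs2 were Ciart (0.09), Dcun1d4 (0.10) and Plec (0.15), and to Cish Cbarp (0.10), Wnk4 (0.11) and App (0.12), all of them higher on the low-spike arrays. Closer matches were found for the flatter members: Sucla2 (0.03), Taf15 (0.04) and Ranbp6 (0.05) for Socs4, Nhsl2 (0.04), Cox10 (0.05) and Tfip11 (0.05) for Socs5, Rnf5, Flna and Kctd14 (each 0.07) for Socs6, and Smpd4 (0.05), L3mbtl2 (0.09) and Hivep1 (0.10) for Socs7.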

How the data were processed

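The authors deposited 1 table of intensity values for 45101 probe sets on 5 Affymetrix mouse arrays, hybridised with biotin-labelled RNA; the tool in the submitters' processing notes is MAS5, and the genome build is not given in the sources used here. The series text mentions a log2 transformation, but the deposited intensity values were linear, so log2(signal + 16) was computed. Probe sets were named by the platform annotation given with the series. After leaving out 64 control probe sets, the 22519 at or above the median mean were kept (15 of the 24 of the SOCS family), and the brightest kept probe set by mean stood for each of 11392 genes. The member probe sets nearest that border were 1 of Socs4 at 7.02 and 1 of Socs2 at 6.91 outside it and 1 of Socs2 at 7.43 inside.

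limma 3.58.1 in R 4.3.3 fitted KA/KA against WT (lmFit, eBayes with trend, two-sided, Benjamini-Hochberg, threshold 0.05) and was tested on simulated data. Tests measure the spread between these arrays. Array sets were divided at a median log2 poly-A control signal of 10. Members, pathway lists and marker lists were chosen with earlier results of these data known. Named genes were the members, the 3 pathway genes of each list with the largest difference and the 3 nearest patterns of each member. Il6, Il10, Il21, Csf3, Lep, Ifngr1, Elob, Cd22, Blnk, Myl4, Napsa and the sex-linked genes were named after their values were seen. For the pathway, 7 listed genes were not analysed here. Alternatives were 2 other scalings, pseudocounts of 1 and 64, other filters and probe set rules, eBayes without trend, blocks, and each array left out.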

Additional observations from a re-analysis of the deposited data

Results flagged for a closer look

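Socs5 and Socs7 differed between genotypes in opposite directions in the 2 array sets. KA/KA was higher in the high-spike pair, by 0.43 for Socs5 and 0.64 for Socs7, and lower on the low-spike arrays in the mean (-0.36 and -0.75), where both KA/KA arrays lay below WT 2. This difference between the sets was not tested. Each set held a single WT array. The direction was not shared by all probe sets of either gene: 1423349_at of Socs5 was lower on KA/KA in both sets, and the 2 dim probe sets of Socs7 were lower on KA/KA 1 and higher on KA/KA 2 than the WT array of their set.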

How the results depend on the processing

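Over the 5 arrays limma called 0 genes under every alternative but the replicate block, with 6 to 568 genes at an unadjusted p below 0.05; leaving out each array in turn gave 0 to 0 calls. With the replicate number as a block 1 gene was called, Xist (6.13 ± 0.35, adjusted p = 0.0114); the block leaves KA/KA 3 without weight. Deviations of same-numbered arrays correlated at 0.88 and 0.65, but the labels do not say that the numbers pair animals, and number 1 is the high-spike pair. Of 223 recomputed member differences, 215 moved by less than 1 SD of the member's residuals, 8 by more, and 12 changed sign. Part of them could not move, since eBayes without trend and the other filters kept the same estimates. The replicate block repeated the values found without KA/KA 3. For differences over the 5 arrays the SD takes in the array sets, so Cish going from 0.78 to -0.27 counted as less than 1 SD. No stability is read from these counts. Socs3 kept its direction in all of them: 1.69 to 2.86 over the arrays when an array was left out, and 0.74 in place of 2.42 on the low-spike arrays without _x_at and _s_at probe sets. Socs1 on the low-spike arrays was 2.19 and 0.89 with pseudocounts of 1 and 64, and at 16 it lay between them. Sign changes occurred for Socs5 and Socs6, whose differences of means were near 0, and, with 1 WT array left out, for Socs1, Socs2 and Cish. Leaving out 1 WT array leaves WT in a single array set, so that set and genotype are mixed. Signal over background limits Socs1 and the dim probe sets of Socs2, Socs4, Socs6 and Socs7.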
